A study of Mus musculus with 8 samples.

Results

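Marker genes of macrophages and monocytes, Adgre1, Cd68, Cx3cr1, Pf4, Marco, Ly6c1 and Cd163, were followed across 8 pools of cells from mouse lungs. They were chosen by name from a list of 8 genes and make up 7 of the 754 genes of the NanoString panel, which counts RNA molecules with colour-coded probes and no amplification. The remaining gene on the list, Ly6c2, was not analysed here. Balb/c mice carried grafts of 4T1 cells, a line from a mouse mammary tumour that forms lung metastases. In the DSHN group, the mice received DSHN, which activates the nuclear receptor NR0B2, and in the DMSO group they received DMSO as placebo. Treatment was labelled as 10 mg/kg daily for 7 days and began 10 days after grafting. The 24 mice were divided evenly, and the lungs of 3 mice of a group were pooled to give each of 4 DSHN and 4 DMSO samples. All mice carried 4T1, so no lung without tumour cells entered the comparison, and the sources used here state neither sex nor age.

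Macrophages and monocytes are phagocytes that take up particles, dying cells and lipids, and the lung holds several kinds. Alveolar macrophages live in the air spaces and are maintained locally, whereas monocytes arrive from the blood and can become macrophages within the tissue. Adgre1 encodes F4/80, an adhesion-type receptor on the surface of mouse macrophages, and Cd68 encodes a glycoprotein of their lysosomes and endosomes. Marco and Cd163 are scavenger receptors, Marco for bacteria and particles and Cd163 for complexes of haemoglobin with haptoglobin. Cx3cr1 is the receptor for the chemokine CX3CL1 (fractalkine) and is high on patrolling monocytes. Ly6c1 encodes a surface protein of the Ly6C family, which is high on classical monocytes and is also found on endothelial cells. Pf4 encodes platelet factor 4 (CXCL4), a chemokine stored in platelet granules that is also made by some macrophages.

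The labels call the cells dendritic cells, isolated with CD11b and CD11c beads. Both surface proteins also occur on macrophages, monocytes and neutrophils. Of 8 dendritic cell genes on the panel, Cd83, an activation marker, was above background in all 8 pools, and Xcr1, which marks cross-presenting dendritic cells, was above background in none. The dendritic cell genes Ccr7, Fscn1 and Batf3 were above background in 7 pools, all but the shallow DSHN 1 described below. Flt3 was above background in 1 DSHN pool and 1 DMSO pool, and Clec9a in 1 DSHN pool and 0 DMSO pools. Lamp3 was above it in 3 DSHN pools and 2 DMSO pools. Among other genes, 13 of 22 of monocytes and macrophages and 6 of 8 of alveolar macrophages were above background in every pool, against 291 of the 754 panel genes. Background was set in each pool at the mean of the 8 negative control probes, as deposited, plus 2 SD. Gene counts recovered as described below were compared with it.

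All levels below are log2 values relative to the mean of 4 housekeeping genes (Oaz1, Ppia, Rpl19 and Tubb5), and each is compared only with the same gene in other pools. A pair of pools stood apart before any marker was considered. The pool DSHN 1 was shallow, with a total of 123786 recovered counts and 293 genes above background, against totals of 532656 to 923796 and 498 to 559 genes in the other pools. There, 4 of the 7 markers were under background, so its values for them are not measured levels. The factor that turns counts into deposited values was 6.82 in the pool DMSO 1 and 0.604 to 1.16 elsewhere. It was inferred here from the steps between low values, searched near the factor that 5 positive control probes give. Those probes alone gave 6.96 in DMSO 1 and 0.613 in DSHN 1. The search was held to a narrow range around the factor of those probes. The inferred factors therefore had to lie close to it, and their closeness is no check. No source used here states what the deposited factor was set from, and recovered counts carry that doubt. In DMSO 1 the Tubb5 level was 8.68, against 9.84 to 10.39 in the other pools. The markers and most of the gene lists are therefore also given without one or both of these pools. In all, 49 of the 56 marker values were above background.

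Adgre1 and Cd68, the general macrophage markers, showed no difference that passed the test. Adgre1 was 9.61, 8.71, 9.19 and 9.14 in DSHN pools 1 to 4, against 9.39, 9.08, 8.72 and 9.50 in DMSO pools 1 to 4. The groups covered nearly the same range, and their means were 9.16 ± 0.37 in DSHN and 9.17 ± 0.35 in DMSO (SD, n = 4 each). The difference, DSHN minus DMSO, was -0.01 with a standard error of 0.26 (95% interval -0.59 to 0.57, limma adjusted p = 0.996).

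Cd68 was 10.24, 11.03, 11.12 and 11.40 in the DSHN pools, against 11.89, 11.32, 11.16 and 11.51 in the DMSO pools. The groups overlapped, with the lowest value in the shallow pool DSHN 1 and the highest in DMSO 1. The difference was -0.52 with a standard error of 0.28 (95% interval -1.16 to 0.11, limma adjusted p = 0.925). It was -0.28 without DSHN 1, -0.38 without DMSO 1 and -0.14 without both.

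Cx3cr1 was the one marker whose groups did not overlap. Its levels were 6.90, 6.03, 6.41 and 6.59 in the DSHN pools, against 5.89, 5.95, 4.94 and 6.02 in the DMSO pools. The gap between the lowest DSHN pool and the highest DMSO pool was 0.01, and the value of DSHN 1 was under background, at 23.1 recovered counts against a limit of 40.04. The difference was 0.78 with a standard error of 0.33 (95% interval 0.05 to 1.51, limma unadjusted p = 0.038, adjusted p = 0.925), so it did not pass the threshold over the panel. The exact two-sided permutation test gave 0.0286, the smallest p that 4 pools against 4 allow. The difference was 0.65 without DSHN 1, 0.53 without DMSO 3 and 0.71 without both DMSO 1 and DSHN 1. It was 0.45 after the background was subtracted (limma adjusted p = 0.879) and 0.44 after quantile normalization (limma adjusted p = 0.946). The groups overlapped after both and after median centring, where the difference was 0.81.

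In cells sorted in bulk, fewer cells of a type and less RNA of the gene in each cell cannot be told apart. Cx3cl1, which encodes the ligand of CX3CR1, was above background in none of the 8 pools, and neither was Cxcr3, the receptor for CXCL9, CXCL10 and CXCL11.

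Pf4 varied more between pools than any other marker. It was 7.28, 6.65, 5.48 and 5.71 in the DSHN pools, against 9.84, 5.31, 5.25 and 4.84 in the DMSO pools. The single high pool was DMSO 1, with 714 recovered counts against 30.0 to 112 in the other 7 pools, of which DSHN 1 was under background. With it, the difference was -0.03 (95% interval -2.29 to 2.23, limma adjusted p = 0.996). Without it, every DSHN pool was above every DMSO pool, and the difference was 1.15 (limma unadjusted p = 0.0254, adjusted p = 0.899). Without both DMSO 1 and DSHN 1 it was 0.82 (limma unadjusted p = 0.0369, adjusted p = 0.926), with means of 5.95 ± 0.62 in DSHN and 5.13 ± 0.26 in DMSO (SD, n = 3 each).

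Ly6c1 followed a like pattern. It was 8.54, 7.85, 8.15 and 7.92 in the DSHN pools, against 10.51, 7.84, 7.76 and 7.73 in the DMSO pools. DMSO 1 was far above all other pools, which lay within a narrow band apart from DSHN 1. The difference was -0.34 with a standard error of 0.58 (95% interval -1.64 to 0.95, limma adjusted p = 0.925). It was 0.34 without DMSO 1 (limma adjusted p = 0.899), and the groups then did not overlap, by a gap of 0.01. Ly6c1 and Ly6c2 are near-identical neighbours, so the probe may count both and the value is uncertain as to the gene. The sources used here do not give the probe sequences.

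Neither scavenger receptor showed a difference that passed the test. Marco was 7.54, 7.51, 6.48 and 7.82 in the DSHN pools, against 6.76, 7.05, 7.45 and 7.44 in the DMSO pools. The groups overlapped over most of their range, and the value of DSHN 1 was under background. The difference was 0.16 with a standard error of 0.32 (95% interval -0.55 to 0.88, limma adjusted p = 0.927), and it was 0.45 without DSHN 3 and 0.00 without DSHN 4.

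Cd163 was 6.77, 5.39, 4.59 and 3.83 in the DSHN pools, against 7.31, 4.02, 4.40 and 4.28 in the DMSO pools. It was above background in 1 of the 4 DSHN pools and 3 of the 4 DMSO pools, with 124 recovered counts in DMSO 1 and at most 46.8 in the other pools. The difference was 0.14 with a standard error of 0.84 (95% interval -1.73 to 2.01, limma adjusted p = 0.988). It was -0.40 without DSHN 1, 0.91 without DMSO 1 and 0.37 without both, so its sign turned on single pools.

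**Figure D1:**
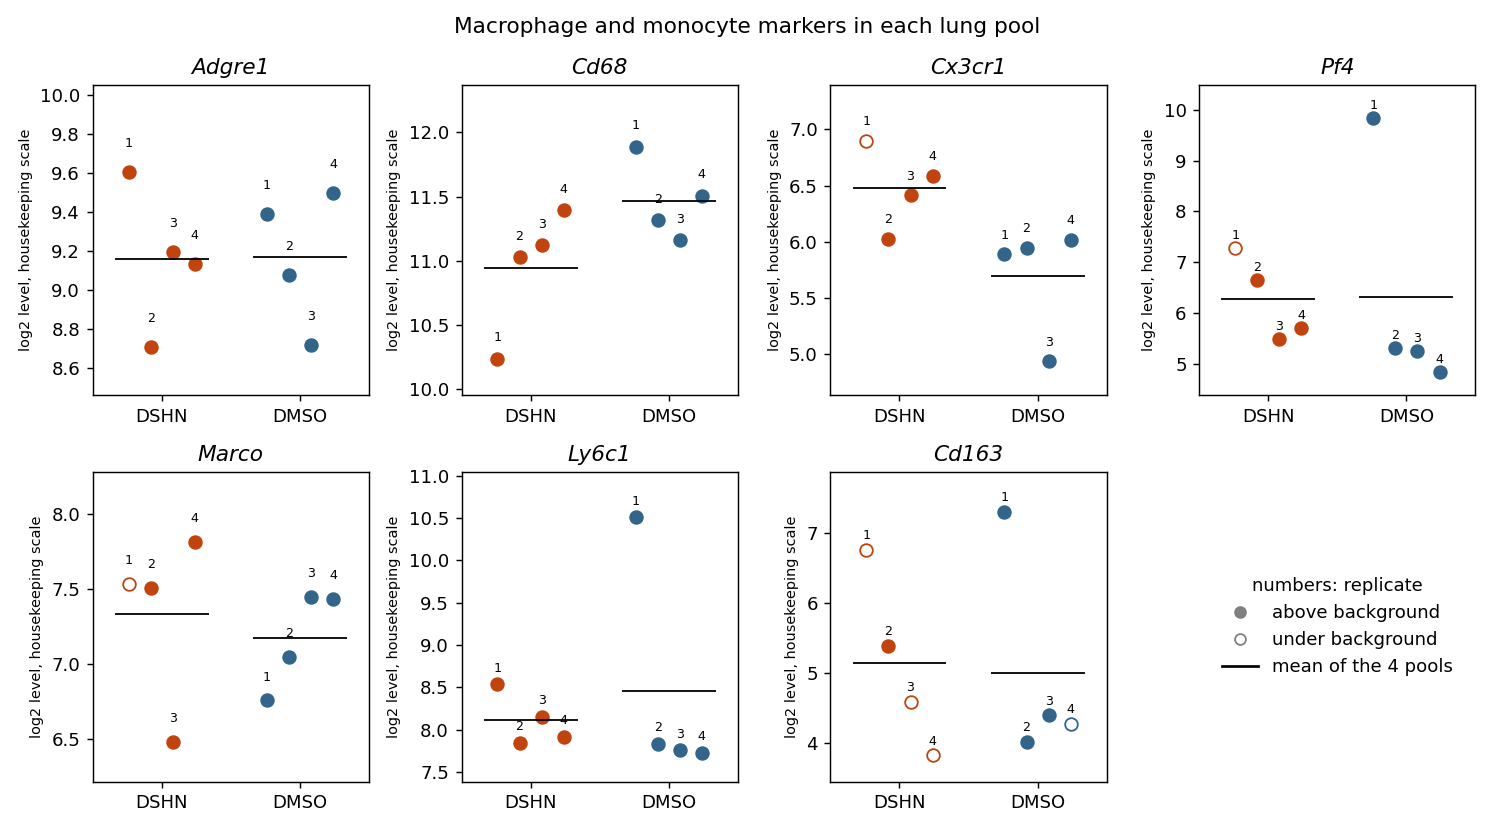
Level of each marker (log2, relative to 4 housekeeping genes) in the DSHN and DMSO pools, with the replicate number beside each point, open points under background and a line at the mean of 4 pools. Pf4, Ly6c1 and Cd163 were highest in DMSO 1 (9.84, 10.51 and 7.31), and the Cx3cr1 groups were separated by 0.01.

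Set against the panel, the markers gave few calls. Of 554 genes tested, 0 passed the adjusted threshold of 0.05 in limma (0%), and 20 had an unadjusted p below it (3.61%), of which 1 was a marker, Cx3cr1. With sample weights, limma called 1 gene, which was no marker. The groups did not overlap for 18 genes (3.25%), again with Cx3cr1 as the 1 marker. Without DMSO 1, 23 genes (4.15%) had an unadjusted p below 0.05, including 2 markers, and 40 genes (7.22%) had groups that did not overlap, including 3 markers (Cx3cr1, Pf4 and Ly6c1). Without both pools the counts were 28 genes (5.05%) with 1 marker, Pf4, and 50 genes (9.03%) with 3 markers. Across all pools, 3 of the 7 markers had a higher mean in DSHN and 4 a lower one. Their median difference was -0.01, against a median of 0.03 over the tested genes. Without DMSO 1, 6 of 7 were higher, as were 383 of the 554 tested genes, with medians of 0.34 for the markers and 0.13 for the tested genes. Without both pools, 4 of 7 markers and 330 of the 554 genes were higher, with medians of 0.20 and 0.06.

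**Figure D2:**
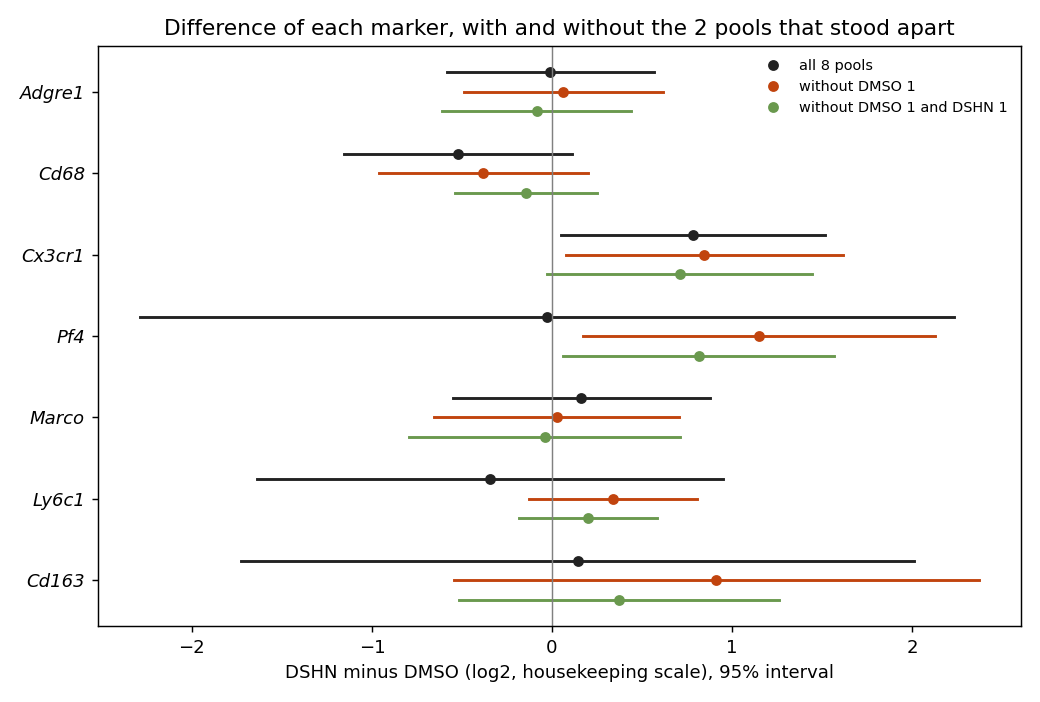
Difference of each marker (DSHN minus DMSO, log2) with its 95% interval from limma, for all 8 pools, without DMSO 1, and without DMSO 1 and DSHN 1. The Pf4 interval runs from -2.29 to 2.23 with all pools, and its difference is 1.15 without DMSO 1.

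The markers divided over DMSO 1. Here its level was compared with the median of the 6 pools other than DSHN 1, as a description of a single pool with no test. Pf4 was 21.8-fold higher in DMSO 1 (4.44 in log2), at rank 3 from the top of the 554 tested genes. Cd163 was 7.84-fold higher, at rank 15, and Ly6c1 was 6.35-fold higher, at rank 19. Those 3 were the highest of the 8 pools on the housekeeping, deposited, median-centred and Tubb5-free scales. Cd68 was 0.65 higher, Adgre1 0.28 higher, Cx3cr1 differed by -0.13 and Marco by -0.68. On median-centred values, Cd68 was 0.12 higher, Adgre1 differed by -0.15, Cx3cr1 by -0.69 and Marco by -1.27, the lowest of the 8 pools. The median tested gene was itself 0.34 higher in DMSO 1, and 221 of the 554 (39.9%) had their highest level there.

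The same pool stood out for other macrophage genes, named here after their values were seen. Of 21 tested monocyte and macrophage genes, 16 were highest in DMSO 1 and 1, Mertk, was lowest. Over all tested genes, 39.9% were highest and 15.7% lowest there. On median-centred values 13 of the 21 were highest and 2 lowest, against 25.1% and 36.5% of the tested genes. Fcgr1, the high-affinity receptor for IgG, was 11.1 in DMSO 1 and 7.41 to 8.13 in the 6 other pools, an 11.2-fold difference from their median. Apoe, which carries lipids, was 7.43-fold higher, and C1qb, a chain of complement C1q, was 4.74-fold higher.

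Alveolar macrophage genes went the other way in that pool. Of 8 tested, 5 were lowest in DMSO 1 and 1, Cd36, was highest. Over all tested genes, 87 of 554 (15.7%) were lowest there. On median-centred values 6 of the 8 were lowest, against 36.5% of the tested genes. The genes that follow have the most negative differences of the list and were named after their values were seen. Pparg, a transcription factor that alveolar macrophages need, differed by -2.37. Siglecf, a surface lectin that they share with eosinophils, differed by -2.21, and Itgax, which encodes CD11c, by -2.02. The rest of the list ran from -1.90 for Csf2ra to 0.93 for Cd36. Eosinophil and mast cell genes, a list that holds Siglecf too, were also low in that pool, with a summed level of 436.5 against 896 to 1816 in the 6 other pools. The part of either cell type in the Siglecf level was not tested. The summed level of the alveolar list on the linear housekeeping scale was 10615 in DMSO 1, against 21208.8 to 37141 in the 6 other pools. The summed monocyte and macrophage list was 53475.1 in DMSO 1, against 25143.7 to 31731.3 in those pools. Neutrophil genes were also high there, with 8 of 9 tested highest in DMSO 1 (6 of 9 on median-centred values). Their summed level was 223999, against 69335.7 to 156069 in those pools. A linear sum is set mostly by its most abundant genes, Chil3 and Csf2ra in the alveolar list and S100a8 and S100a9 in the neutrophil list. Chil3 is also on the list of classical monocyte genes, and Mrc1 is on both the alveolar and the monocyte and macrophage lists. On the deposited scale, 95.5% of the tested genes were highest in DMSO 1, and none of the 8 alveolar genes was lowest.

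**Figure D3:**
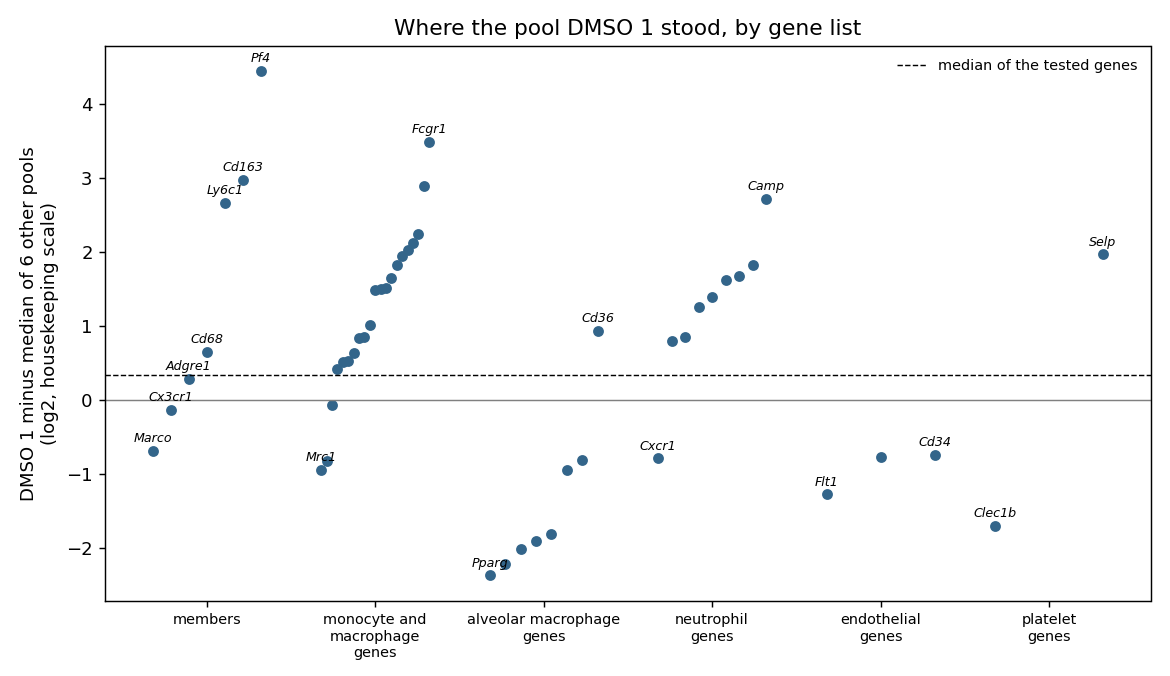
Level in DMSO 1 minus the median of 6 other pools (log2, housekeeping scale) for each tested gene of 6 lists, with every marker and the extreme genes named. Pf4, Cd163 and Ly6c1 lie above 2, Marco lies at -0.68, and the alveolar genes other than Cd36 lie below 0.

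Other cell types carry Pf4 and Ly6c1, and their genes were read in the same pool. Of 3 platelet genes on the panel, Selp, which encodes P-selectin and is shared with endothelium, was highest in DMSO 1 at 7.12. Clec1b, the platelet receptor CLEC-2, was lowest there at 3.36, under background, against 4.90 to 5.31 in the 6 other pools, and Cxcl5 was above background in none. The summed platelet list was 79.6 to 227 in the DSHN pools and 70.1 to 167 in the DMSO pools. The 227 was DSHN 1, where both tested genes were under background, and the other DSHN pools reached 115, below the 167 of DMSO 1. The summed endothelial list was 142 to 517 in the DSHN pools and 91.2 to 173 in the DMSO pools, and the 91.2 was DMSO 1. The 517 was DSHN 1, where all 3 tested genes were under background, and the other DSHN pools reached 223. The part of other cell types in the marker levels was not tested.

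To set the start regions of the markers that stood apart in DMSO 1 beside their values, their promoter windows were read from RefSeq (GRCm38.p6). Each window holds the 250 bases before the start listed in that table, printed 5′ to 3′ on the strand of the gene. Windows were found for 6 of the 7 markers. The 3 motifs searched on both strands were GAGGAA for PU.1, the lineage factor of macrophages, AGATAA for GATA factors and GAAA, 2 bases of any kind and GAAA again for interferon response elements. Capitals mark a PU.1 match, which reads TTCCTC where it lies on the opposite strand. The Pf4 window is chr5:90772185-90772434 (plus strand), the first of 2 for Ly6c1 is chr15:75048838-75049087 (minus strand) and that of Cd163 is chr6:124304401-124304650 (plus strand).
Pf4: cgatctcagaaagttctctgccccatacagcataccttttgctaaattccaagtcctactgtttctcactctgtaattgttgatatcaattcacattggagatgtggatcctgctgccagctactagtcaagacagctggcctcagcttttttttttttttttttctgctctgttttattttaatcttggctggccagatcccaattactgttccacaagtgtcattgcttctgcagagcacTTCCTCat
Ly6c1: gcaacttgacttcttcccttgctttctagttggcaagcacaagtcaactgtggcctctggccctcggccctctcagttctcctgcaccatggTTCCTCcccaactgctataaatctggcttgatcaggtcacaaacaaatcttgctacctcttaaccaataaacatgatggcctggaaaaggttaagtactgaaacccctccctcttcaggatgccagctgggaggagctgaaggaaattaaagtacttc
Cd163: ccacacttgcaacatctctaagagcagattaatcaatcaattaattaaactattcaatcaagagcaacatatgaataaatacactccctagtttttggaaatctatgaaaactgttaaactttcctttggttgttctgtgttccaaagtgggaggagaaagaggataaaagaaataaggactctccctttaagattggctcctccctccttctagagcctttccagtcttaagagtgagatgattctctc
In Pf4 the match lies 8 to 3 bases before the start. At least 1 PU.1 match was present in 4 of the 6 markers with a window (Cd68, Pf4, Marco and Ly6c1), against 23.3% of the 32851 promoters of the same length. None of the 6 held the GATA motif, present in 9.99% of promoters, or the interferon motif, present in 2.98%. Of the printed windows, those of Pf4 and Ly6c1 held a PU.1 match and that of Cd163 did not.

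Covariation of the markers across pools was then examined. The points share the pool and its housekeeping factor. Adgre1, Cd68 and Ly6c1 were above background in all 8 pools, which gave 3 pairs. Pearson's r was -0.08 for Adgre1 with Cd68 (exact permutation p = 0.867) and 0.42 for Adgre1 with Ly6c1 (exact permutation p = 0.382). It was 0.35 for Cd68 with Ly6c1 (exact permutation p = 0.279). Spearman's rho was 0.17, 0.38 and -0.12 in the same order (exact permutation p = 0.703, 0.360 and 0.793). The Benjamini-Hochberg adjusted p of r over the 3 pairs ran from 0.572 to 0.867. Without the 2 pools farthest from the median of the first gene, r was -0.39, 0.29 and -0.38 for these pairs in the same order.

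Leaving out the shallow pool DSHN 1 allowed all 7 markers to be paired over 7 pools, a choice made after its depth was seen. Cd163 was still under background in 3 of these pools (DSHN 3, DSHN 4 and DMSO 4), so its correlations rest partly on values that are not measured levels. Of 21 pairs, 3 had an exact permutation p of r below 0.05 and 0 had an adjusted p below it. These counts were 4 and 0 on median-centred values, and 13 and 5 on deposited values. The share over pairs of panel genes was not computed. On the housekeeping scale, the median r of a marker with 454 other genes over these pools ran from -0.27 for Marco to 0.62 for Ly6c1. On that scale, Adgre1 and Cd68 gave r = 0.75 (exact permutation p = 0.0488, adjusted p = 0.271) and rho = 0.75 (exact permutation p = 0.0663). Their r was 0.61 without the 2 farthest pools, and 0.67 over the 7 pools on median-centred values (exact permutation p = 0.103). Pf4 and Cd163 gave r = 0.95 (exact permutation p = 0.0167, adjusted p = 0.271) but rho = 0.54 (exact permutation p = 0.236). Their r was -0.33 without DMSO 1 and DSHN 2, so that relation rests on those pools. Pf4 and Ly6c1 gave r = 0.95 (exact permutation p = 0.0359, adjusted p = 0.271) and rho = 0.86 (exact permutation p = 0.0238, adjusted p = 0.5). Their r was 0.65 without the same pools. On median-centred values, r over the 7 pools was 0.93 for Pf4 with each of Cd163 and Ly6c1. Ly6c1 there gave 0.87 with Cd163 and -0.72 with Marco (exact permutation p = 0.0310 and 0.0212, adjusted p = 0.217 for both).

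Over the 6 pools without DMSO 1 and DSHN 1, 0 of 21 pairs had an exact permutation p below 0.05. There r was 0.69 for Pf4 with Cd163, 0.23 for Pf4 with Ly6c1 and 0.09 for Ly6c1 with Cd163. Adgre1 and Cd68 gave r = 0.79 in those pools (exact permutation p = 0.0667). The deposited values are not scaled to the housekeeping genes and carry the factor of each pool. On them, Adgre1 and Cd68 gave r = 0.98 over 8 pools (exact permutation p = 0.000149).

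**Figure D4:**
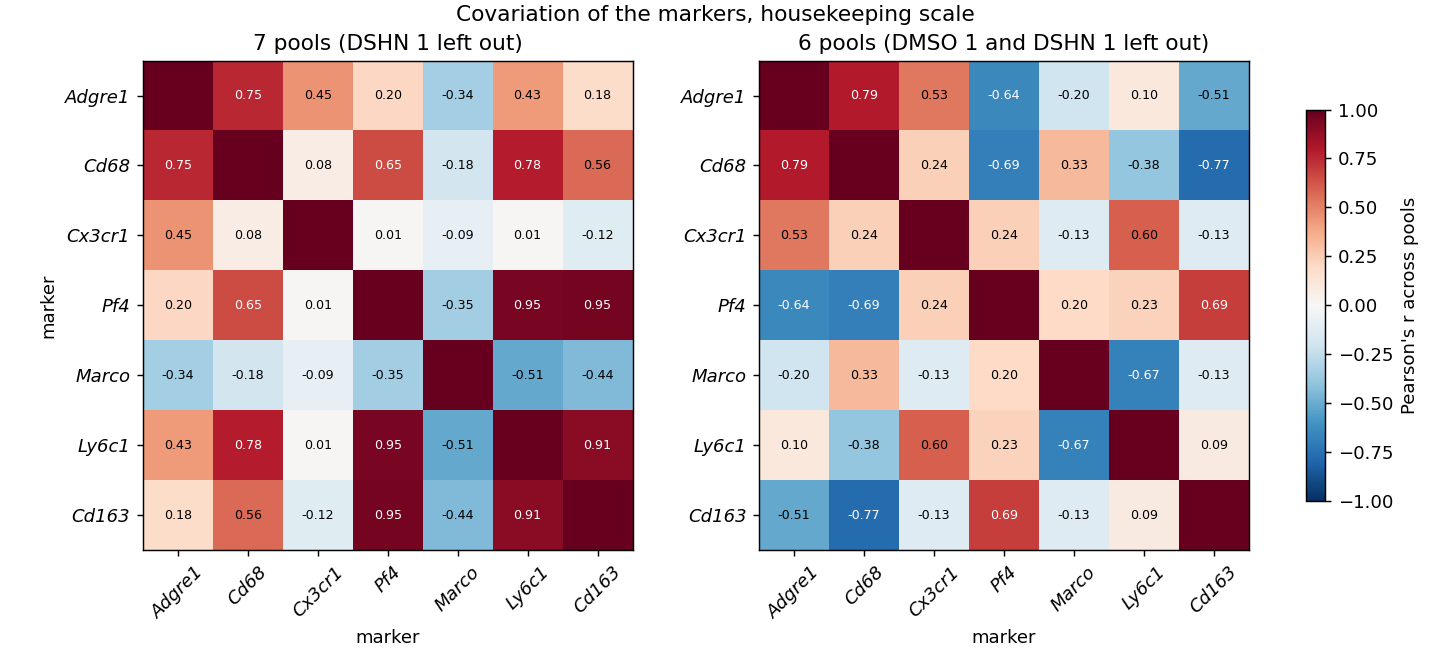
Pearson's r for each pair of the 7 markers across 7 pools (DSHN 1 left out) and 6 pools (DMSO 1 left out as well). The block of Pf4, Ly6c1 and Cd163 has r of 0.91 to 0.95 over 7 pools and 0.09 to 0.69 over 6 pools.

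The panel genes most like a marker over the 8 pools were read as a description, among 284 other genes above background in all of them. Adgre1 was most like Mapk14 (r = 0.96), Hivep1 (0.93) and Map2k3 (0.92) and least like Nlrp3 (-0.88). Mapk14 and Map2k3 encode the kinase p38 alpha and an activator of it, and Nlrp3 an inflammasome sensor. Cd68 was most like Ctss (0.96), Ctsd (0.96) and Fcgr3 (0.95) and least like Tyrobp (-0.96). Ctss and Ctsd encode lysosomal proteases. None of these 4 genes was in that place without the 2 pools that stood apart. The genes compared there were a larger set, 454 others above background in the 7 pools other than DSHN 1. Among them, Cd68 was most like Anxa4 (0.99), Ear3 (0.97) and Lipa (0.97) and least like Spry2 (-0.96). Ly6c1 was most like C3ar1 (0.99), Ptafr (0.98) and Fem1c (0.97) and least like Ear3 (-0.97). C3ar1 and Ptafr encode receptors for complement C3a and platelet-activating factor. Over the 6 pools without DMSO 1 and DSHN 1, Ly6c1 was most like Ms4a1 (0.94), Alas1 (0.88) and Ercc1 (0.87) and least like Insig1 (-0.82). Its median r was 0.14 with the 454 genes compared there, against 0.51 with the 284 genes compared over the 8 pools. Both the pools and the genes differ between these medians. Adgre1 was then most like Tlr7 (0.98), Daglb (0.98) and Map2k1 (0.96) and least like Il18r1 (-0.99). Over the 7 pools without DSHN 1, a view added after the values were seen, Pf4 was most like Ccl24 (0.98) and least like Siglecf (-0.98), among 454 genes. In the 6 pools without DMSO 1 as well, it was most like Retnla (0.96), with Ccl24 at 0.88, and least like Ncor1 (-0.97). Cx3cr1 was most like Itga5 (0.96) and least like Atf3 (-0.97) in the same 7 pools. In the 6 pools it was most like Cxcl14 (0.964), with Itga5 at place 3 (0.959), and least like Atf3 (-0.97).

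Related lists were described by counts, beside a median of 0.03 over all tested genes. Of 21 monocyte and macrophage genes, 5 had a higher and 16 a lower mean in DSHN. The median of the list was -0.27, and 0 had an unadjusted limma p below 0.05. Ctss had the smallest p of the list, at 12.01 in DSHN and 12.65 in DMSO, a difference of -0.64 with a standard error of 0.31 (limma adjusted p = 0.925). Without DMSO 1 the list was divided 11 higher and 10 lower, with a median of 0.04 against 0.13 over the tested genes. Of 8 alveolar macrophage genes, 6 were higher in DSHN with a median of 0.27, but 2 of 8 were higher without DMSO 1, with a median of -0.25. Without both DMSO 1 and DSHN 1, 3 of 8 were higher, with a median of -0.07. Csf2ra, a chain of the GM-CSF receptor, had the smallest p among them, with a difference of 0.80 (limma adjusted p = 0.925) that was 0.36 without DMSO 1.

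Of 7 classical monocyte genes, 4 were higher in DSHN (median 0.01), and of 4 patrolling monocyte genes, the cells that carry Cx3cr1, 1 was higher (median -0.16). Without both DMSO 1 and DSHN 1, 6 of the 7 classical genes were higher (median 0.19) and 1 of the 4 patrolling genes was (median -0.13). Of 5 other scavenger receptors, 1 was higher (median -0.11). The CXCR3 ligands Cxcl9, Cxcl10 and Cxcl11 gave differences of -0.01, -0.56 and 0.21, which were 0.13, -0.03 and 0.84 without DMSO 1. No gene of these lists passed the adjusted threshold.

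Among lists of other cell types, 4 of 9 neutrophil genes were higher in DSHN (median -0.27), as were 4 of 5 dendritic cell genes (median 0.29). All 3 endothelial genes (median 1.23), both platelet genes tested (median 0.33), 2 of 3 T and NK cell genes (median 0.41) and all 5 eosinophil and mast cell genes (median 0.62) were higher. The 1 B cell gene, Ms4a1, and the 1 epithelial gene, Cdh1, were each 0.41 higher. Many of these genes are weak, and several were under background in DSHN 1, where the background limit was 7.69 on the housekeeping scale, against 3.77 to 5.11 in the other pools. Without DMSO 1 and DSHN 1, the endothelial median was 0.58, 1 of the 2 platelet genes was higher (median 0.02) and 1 of the 5 eosinophil and mast cell genes was higher. The medians of the T and NK cell list and the dendritic cell list were then 0.27 and 0.44. Without DMSO 1, 8 of the 9 neutrophil genes were higher (median 0.13), and without both pools 4 of 9 were (median -0.01). No gene of these lists passed the adjusted threshold.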

How the data were processed

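Per the labels, RNA of 8 pools was counted on a NanoString panel, and the authors deposited log2 values per probe with 2 decimals. The sources used here do not name the normalization software. A factor per sample was searched near that of 5 positive controls. Low values were whole multiples of 1 step per sample, within 0.0071 in log2, so counts could be recovered by dividing by that factor. The background limit came from the 8 negative controls at their deposited values, not divided by the factor. Recovered gene counts were compared with that limit. Each background call therefore assumes that the control probes were deposited unscaled, which no source used here states. Genes at 20 or more on the deposited scale in at least 4 samples were tested (554 of 754).

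Levels were the deposited log2 values minus the mean of Oaz1, Ppia, Rpl19 and Tubb5 in the same sample, plus a constant. DSHN was compared with DMSO in limma 3.58.1 (R 4.3.3) with a variance trend and Benjamini-Hochberg adjustment over the tested genes, at a threshold of 0.05, and the fit was tested on simulated data. Correlations used exact two-sided permutation in NumPy 2.4.6, with ranks from SciPy 1.17.1. The labels say that each sample pools 3 lungs, so the spread is between pools. The replicate numbers are shared by both groups, but deviations of same-numbered pools correlated at -0.18, 0.14, 0.02 and -0.29, so the numbers were not used as pairs. Total recovered counts of 123786 to 923796 limit the precision of low genes.

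The markers and the 14 lists were chosen with earlier results of these data known. The genes named are the markers, the 3 most and 1 least alike for each marker above background in all pools, and up to 3 genes per list (6 for monocytes and macrophages) by the smallest p. Others were named outside this rule, with their values already seen. Alternatives tried were the deposited scale, median centring, 3 housekeeping genes, quantile normalization, other filters and background treatments, sample weights, a replicate block and leaving out pools.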

Additional observations from a re-analysis of the deposited data

Results flagged for a closer look

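Within the 4 DMSO pools, 4 values lay far from the other 3 of their group by Dixon's ratio, out of 14 groups examined. About 5% of groups are marked in this way by chance. The share of groups marked over all tested genes was not computed. Whether the markers were marked more often than other genes is therefore not known. On the housekeeping scale, 221 of the 554 tested genes had their highest level in DMSO 1 and 87 their lowest. Pf4 in DMSO 1 was 9.84, Ly6c1 in DMSO 1 was 10.51 and Cd163 in DMSO 1 was 7.31, each far above the other DMSO pools. These 3 belong to 1 pool and are not independent of each other. Cx3cr1 in DMSO 3 was 4.94, below the other DMSO pools at 5.89 to 6.02, and without that pool the Cx3cr1 difference was 0.53 (limma adjusted p = 0.887). The cause of each was not tested.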

How the results depend on the processing

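No marker passed the adjusted threshold under any of the alternatives run. With sample weights, 1 of the tested genes passed. On the deposited scale, where the median tested gene differed by -1.87, 0 markers were higher, and Cx3cr1 (-1.12), Marco (-1.74) and Cd163 (-1.76) changed sign. Leaving out Tubb5 moved the median tested gene to 0.20, made 5 markers higher and gave 0.16 for Adgre1 and 0.14 for Pf4. Adgre1 was 0.016 with median centring and 0.15 with quantile normalization, where Cd163 was -0.27. Background subtraction moved the median tested gene to -0.20, made 1 marker higher and gave -0.051 for Marco and -0.52 for Cd163. Raising values under background to the limit, an alternative chosen after seeing the data, gave 0.075 for Pf4. With genes above background in all pools, 3 markers could be tested and 0 were higher. Without DMSO 1 and DSHN 1, Pf4 was 0.82, Ly6c1 0.20 and Marco -0.041, and with sample weights they were 0.54, 0.16 and -0.12. Beyond what each alternative changes by construction, the cause was not tested.

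Leaving out 1 pool at a time gave -0.16 to 0.14 for Adgre1, -0.67 to -0.28 for Cd68, 0.53 to 0.93 for Cx3cr1, -0.52 to 1.15 for Pf4, 0.00 to 0.45 for Marco, -0.59 to 0.34 for Ly6c1 and -0.40 to 0.91 for Cd163. It gave 2 to 6 markers higher and 0 to 0 genes past the threshold. With the replicate block, although the numbers did not pair the pools, 0 genes passed the threshold, 11 had an unadjusted limma p below 0.05 against 20, and the unadjusted limma p of Cx3cr1 was 0.0387. In this balanced design the block leaves each difference as it is (0.78 for Cx3cr1) and alters its error alone.

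Correlations followed the scale. Adgre1 with Cd68 gave 0.98 on the deposited scale and 0.79 without DMSO 1 and DSHN 1, and -0.31 to 0.75 leaving out 1 pool. Adgre1 with Ly6c1 gave 0.95 on the deposited scale, -0.16 with median centring and -0.000604 without Tubb5, and 0.36 to 0.58 leaving out 1 pool. Cd68 with Ly6c1 gave 0.91 on the deposited scale, -0.013 with median centring, -0.052 without Tubb5 and -0.38 without DMSO 1 and DSHN 1, and -0.88 to 0.78 leaving out 1 pool. The cause was not tested. Low counts limit Cd163 in most pools and 4 markers in DSHN 1.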
